A study of Rattus norvegicus with 20 samples.

Results

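Glutamate is the transmitter that sensory neurons release, and 9 genes that package it or sense it were followed in dorsal root ganglia (DRG) of rats with an injured sciatic nerve. The 9 are the vesicular transporter genes Slc17a6 and Slc17a7, the kainate receptor subunit gene Grik1, the AMPA receptor subunit genes Gria1, Gria2, and Gria4, the NMDA receptor subunit gene Grin1, and the metabotropic receptor genes Grm4 and Grm7. They were chosen by gene name out of the 39747 genes of the count table, and all 9 were found, each on 1 row. Expression is given in every library as CPM, the count of a gene scaled to the total count of that library.

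The sequencing covered 20 DRG from 14 female wild-type Sprague–Dawley rats. Rats ate a soy oil diet (SOD) or a fish oil diet (FOD) for 4 weeks and then had chronic constriction injury (CCI), a loose ligation of the left sciatic nerve, or sham surgery (CT), in which the nerve was exposed and left untied. Left DRG were sequenced from 7 rats on the soy oil diet (4 SOD-CT and 3 SOD-CCI) and 7 on the fish oil diet (3 FOD-CT and 4 FOD-CCI), and the right, uninjured DRG of 3 CCI rats per diet formed the contralateral groups. All rats carried a surgical wound on the left, the DRG are described as collected 7 days after surgery although the diets are said to have gone on for 4 weeks after it, and neither the spinal level nor any pooling of ganglia is given.

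In a DRG neuron, vesicular glutamate transporters load the transmitter into synaptic vesicles, which are released from the central terminals in the spinal cord. AMPA, kainate, and NMDA receptors are ion channels built from several subunits that open when glutamate binds, whereas metabotropic receptors act through G proteins, and those of the group that holds Grm4 and Grm7 mostly sit on terminals and dampen release. Gria2 encodes the AMPA subunit that keeps the channel from passing calcium, and Grin1 encodes the subunit that every NMDA receptor needs. Several of the same genes are also used, some at higher levels, by neurons of the spinal cord.

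The RefSeq promoter table (build GRCr8) held 6 of the 9 genes, matched by symbol and gene ID, and had no entry for Gria1, Gria2, or Grm4. The promoters of the vesicular transporters are shown because the transcripts of these 2 genes are set side by side below. Each run holds the 250 bases before the annotated start, written 5′ to 3′ on the strand of the gene (the plus strand for both), with the GC box GGGCGG or its reverse complement CCGCCC in capitals.
Slc17a6, chr1:110348197-110348446: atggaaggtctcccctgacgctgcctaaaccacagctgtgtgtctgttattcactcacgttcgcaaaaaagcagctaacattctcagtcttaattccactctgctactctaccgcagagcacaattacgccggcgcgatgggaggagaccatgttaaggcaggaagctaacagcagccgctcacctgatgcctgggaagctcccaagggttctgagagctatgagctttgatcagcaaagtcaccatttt
Slc17a7, chr1:104785955-104786204: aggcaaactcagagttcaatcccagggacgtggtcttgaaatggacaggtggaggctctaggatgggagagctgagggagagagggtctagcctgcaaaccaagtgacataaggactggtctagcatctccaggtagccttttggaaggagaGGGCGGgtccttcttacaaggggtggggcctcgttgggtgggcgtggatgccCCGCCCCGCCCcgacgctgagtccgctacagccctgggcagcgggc
The Slc17a7 window held 3 GC boxes, of which 2 share a base, and the Slc17a6 window held 0. Of all 33469 promoters of this length in the table, 30.5% held at least 1. The G and C content was 61.2% for Slc17a7 and 50.8% for Slc17a6. Neither window held the letters TATAAA, found on either strand in 12.9% of all promoters, or TGANTCA (the AP-1 motif), found in 6.34%, and a missing match says only that these letters are not in this window.

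Library totals ran from 22547190 to 54437581 counts. Some libraries held transcripts of other tissues, and these touch most results below. FOD-CT replicate 1, FOD-CCI replicate 1, and the library labelled FOD-CCI contralateral replicate 1, the last 2 from 1 rat, held 2359 to 3766 CPM of spinal cord glia markers against 2.59 to 65.7 in the other 17 libraries, and 615 to 695 CPM of spinal cord neuron markers against 0 to 5.49. The summed CPM of 8 sensory neuron markers was 1400 in FOD-CT replicate 1, 2382 in FOD-CCI replicate 1, and 134 in the library labelled FOD-CCI contralateral replicate 1, against a median of 4292 in the other 17. In that last library the nociceptor genes Scn10a and Prdm12 and the sensory neuron gene Isl1 had 0 counts, so it goes against its DRG label, and it is called the library labelled FOD-CCI contralateral replicate 1 throughout. SOD-CT replicate 1 held the most skeletal muscle transcripts (91099 CPM) and the lowest sensory neuron sum among the other 17 (1378 CPM). Muscle transcripts were next highest in FOD-CT replicate 2 (18903 CPM), FOD-CCI contralateral replicate 3 (7319 CPM), and SOD-CT replicate 4 (5210 CPM). Results are therefore given with and without the 3 spinal cord libraries, and SOD-CT replicate 1, called the muscle library, is named where it matters. In bulk RNA, fewer cells of a type and less RNA per cell cannot be told apart.

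Levels of the 9 genes were first ranked per length, as FPKM (fragments scaled to gene length and to library size), over the 17 libraries without spinal cord transcripts. Slc17a7, which encodes VGLUT1, was the highest, with a median of 113 FPKM (34.5 to 225). Slc17a6, which encodes VGLUT2, came next at 36.6 FPKM (28.6 to 59.5) and was below Slc17a7 in 16 of 17 libraries. The transporter transcripts thus stood above all receptor transcripts by median. Grik1 at 20.9 FPKM and Grin1 at 19.9 FPKM could not be ordered, since Grik1 was the higher in only 9 of 17 libraries. Grm7 followed at 6.37 FPKM, Gria2 at 4.43 FPKM, Gria4 at 2.81 FPKM, Grm4 at 2.46 FPKM, and Gria1 at 0.949 FPKM. Gria4 and Grm4 also could not be ordered (9 of 17), whereas Grm7 exceeded Gria2 in 14 and Gria2 exceeded Gria4 in 13 of the 17. Among the 18668 genes detected in these libraries, the median FPKM of Slc17a7 lay at the 95.6th percentile and that of Gria1 at the 26.2nd. Scaling by library totals in place of the size factors behind the FPKM values gave the same rank for all 9.

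**Figure D1:**
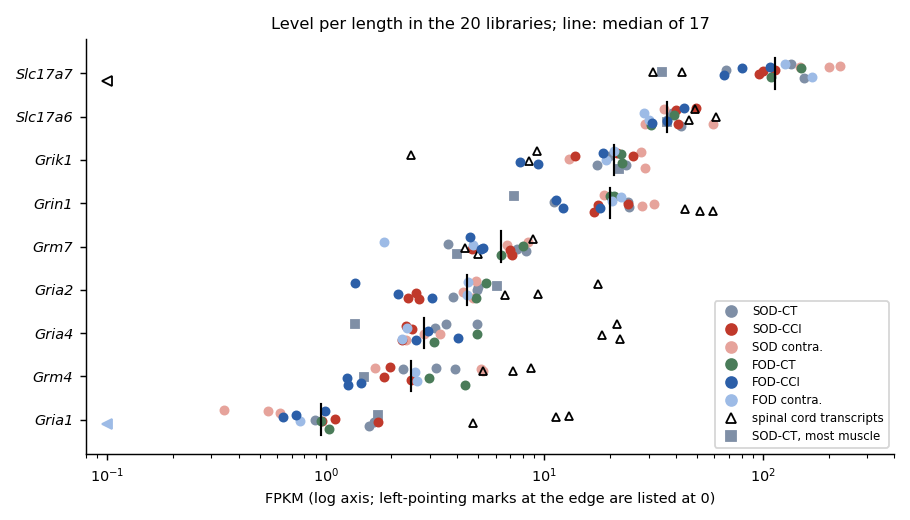
Level of each member per length in the 20 libraries, in FPKM on a log axis, coloured by group, with the median of the 17 libraries without spinal cord transcripts as a black line. The medians of Slc17a7 (113 FPKM) and Slc17a6 (36.6 FPKM) lie to the right of those of all receptor genes, though single libraries overlap. The open triangles of the spinal cord libraries lie far to the right for Gria1, Gria4, and Grin1.

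The 3 AMPA subunit genes and Grin1 were high in the libraries with spinal cord transcripts. Gria4 had 113 CPM in FOD-CT replicate 1, 125 CPM in FOD-CCI replicate 1, and 124 CPM in the library labelled FOD-CCI contralateral replicate 1, against 4.65 to 28.9 CPM in the other 17. Gria1 had 43.8, 14.4, and 35.6 CPM in these libraries against 0 to 5.66 CPM. Gria2 had 137, 46.6, and 67.9 CPM against 9.81 to 36.0 CPM, and Grin1 had 291, 231, and 202 CPM against 19.9 to 140 CPM. For each of these 4 genes, all 3 libraries were above all of the other 17. The share of all genes that were above in this way was not computed, so the count of members has no background. Grm4 was above them in 2 of the 3 (42.1 and 31.6 CPM, with 23.8 CPM in the third library and 4.04 to 23.8 CPM in the other 17). The transporter Slc17a7 went the other way. It had 71.6 and 88.4 CPM in the left DRG and 0 counts in the library labelled FOD-CCI contralateral replicate 1, which at that depth allows up to 0.133 CPM, against 43.4 to 462 CPM in the other 17. Grik1 had 34.8, 29.1, and 8.56 CPM against 26.2 to 101 CPM, with the contralateral library below all others. Slc17a6 (187 to 257 CPM against 91.2 to 234 CPM) and Grm7 (15.7 to 34.2 CPM against 6.28 to 30.4 CPM) were each above all of the other 17 in 1 of the 3 libraries.

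**Figure D2:**
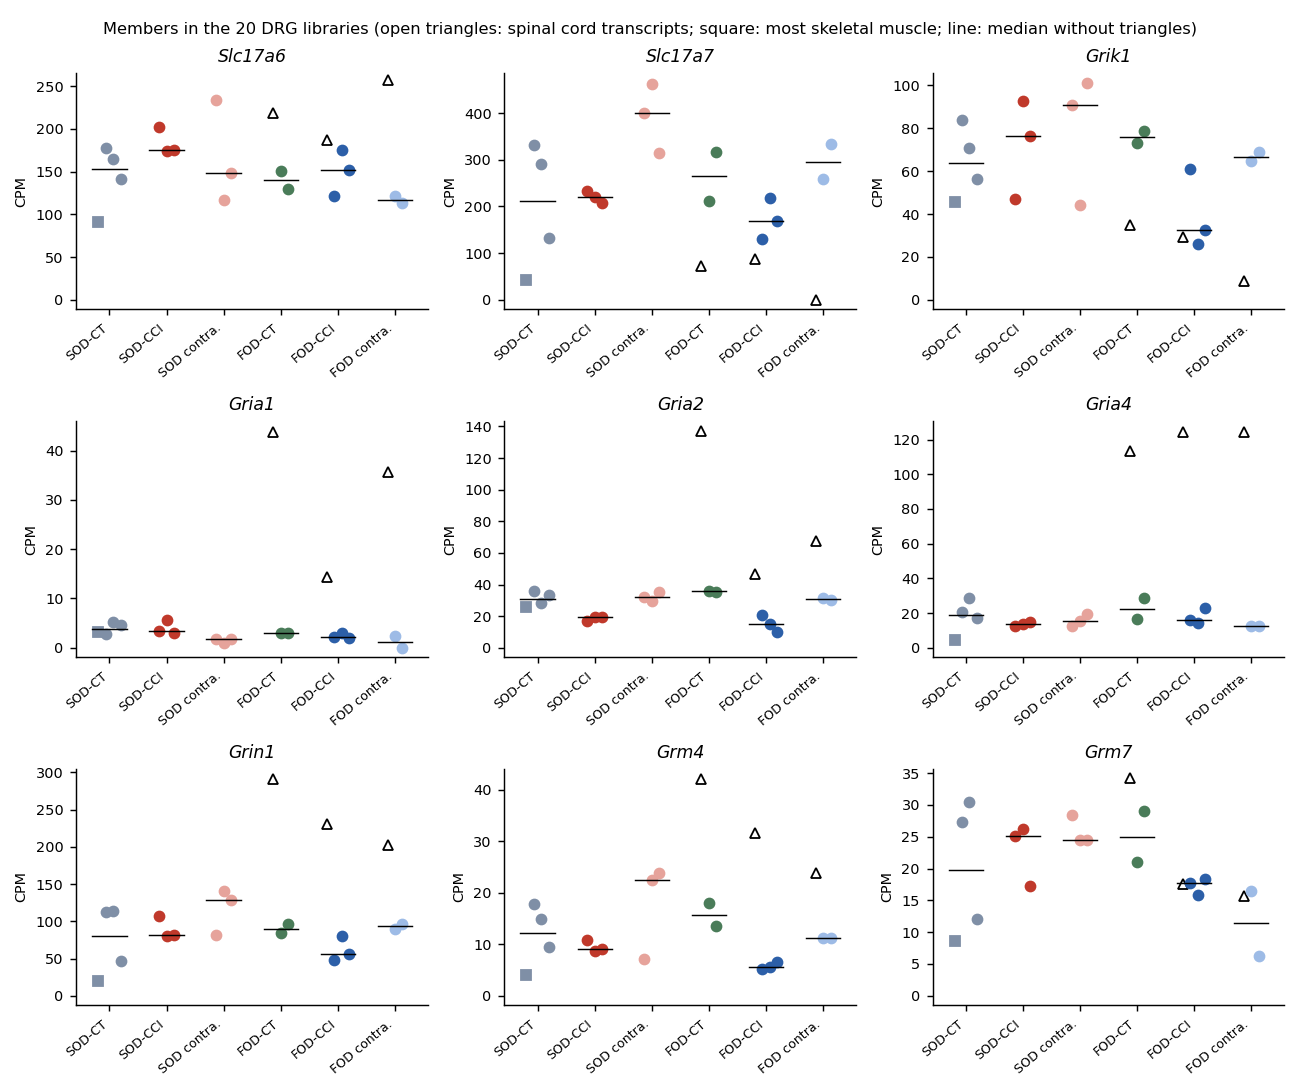
CPM of each member in the 20 libraries by group, with replicates as points, libraries with spinal cord transcripts as open triangles, SOD-CT replicate 1 as a square, and the median without the triangles as a line. The triangles stand above every circle for Gria1, Gria2, Gria4, and Grin1, and the 6 circles of injured DRG for Gria2 (9.81 to 20.9 CPM) lie below all others.

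Calls were made with the quasi-likelihood test of edgeR, at a fold change of 1.2 or more and a p of 0.1 or less after Benjamini–Hochberg adjustment over all genes tested. With every library in the fit, 0 of the 9 members were called in any of 9 comparisons. DESeq2 called 1 member in 1 comparison, given below. The share of all tested genes called was also 0% in SOD-CCI against SOD-CT, FOD-CCI against FOD-CT, FOD-CCI against SOD-CCI, and FOD-CT against SOD-CT, and in the interaction of diet and injury. It was 0.131% between the left and contralateral DRG of SOD-CCI rats, 0.0137% between those of FOD-CCI rats, 0% for the difference between these sides across diets, and 0% between the contralateral DRG of the diets. At an unadjusted p below 0.05, the members that passed were Gria2 (lower) in 3 comparisons, Grm7 (lower) in 1, and Grik1 (lower) and Gria4 (higher) in FOD-CCI against SOD-CCI. These are 6 of 79 member results (7.59%), close to the 6.65% of results over all genes in the 9 comparisons. The share of all genes was 4.52% in FOD-CCI against FOD-CT, 8.48% and 6.96% between the sides of SOD-CCI and FOD-CCI rats, 5.4% in FOD-CCI against SOD-CCI, and 9.51% in the contralateral DRG. Where 0 members passed, it was 13.8% in SOD-CCI against SOD-CT, 3.39% in FOD-CT against SOD-CT, 5.01% for the interaction, and 2.91% for the difference of sides. Without the spinal cord libraries, 2 members were called, Slc17a7 and Gria2, both lower in the left DRG of SOD-CCI rats than in the contralateral DRG.

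Gria2 was low in the injured DRG under both diets. In SOD-CCI it had 16.9, 19.5, and 19.6 CPM, and in the 4 SOD-CT rats it had 26.1, 36.0, 28.3, and 33.5 CPM. All 3 injured DRG were below all 4 sham DRG, and 5.66% of all tested genes were lower in this way. The log2 fold change was −0.92 (SE 0.51, adjusted p = 0.42 by edgeR). Without the spinal cord libraries in the shared estimate of the spread, it was −0.92 (SE 0.26, adjusted p = 0.21), in a fit that called 0.592% of all genes and 0 members. The summed sensory neuron markers were higher in SOD-CCI (4562 to 5625 CPM) than in SOD-CT (1378 to 4499 CPM). Without Prph, the marker that made up most of the sum, the groups overlapped (1348 to 1559 CPM against 463 to 1629 CPM). The part of these markers in the result was not tested.

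Under the fish oil diet, Gria2 had 46.6, 20.9, 14.9, and 9.81 CPM in FOD-CCI and 137, 36.0, and 35.4 CPM in FOD-CT. The first value of each group is the spinal cord library. Apart from these, Gria2 was lower in the 3 injured DRG than in the 2 sham DRG, as were 13.8% of all genes. By edgeR, it differed by −1.51 on the log2 scale (SE 0.50, unadjusted p = 0.0088, adjusted p = 1.00) and by −1.24 (SE 0.30, adjusted p = 0.23) without the 2 libraries. Within the CCI rats, where the 2 DRG come from 1 animal, the left to right ratio of Gria2 CPM was 0.522, 0.654, and 0.558 in SOD-CCI and 0.687, 0.663, and 0.493 in FOD-CCI. Gria2 was the 1 member lower on the left in 6 of 6 rats, as were 2.56% of all tested genes. These rats include FOD-CCI replicate 1 (ratio 0.687), whose right library goes against its DRG label, so its ratio does not compare 2 DRG. In the other 5 rats, both Gria2 and Slc17a7 were lower on the left, as were 8.68% of all genes. With the rat as a block, the log2 change was −0.85 (SE 0.21, unadjusted p = 0.0027, adjusted p = 0.25) in SOD-CCI and −0.70 (SE 0.21, adjusted p = 0.56) in FOD-CCI. The difference between these was 0.15 (SE 0.29, adjusted p = 1.00).

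By edgeR, the call for Gria2 between the sides of SOD-CCI rats depended on 1 rat of the other diet in the same fit. Without both DRG of FOD-CCI replicate 1, the difference in SOD-CCI was −0.85 (SE 0.20, adjusted p = 0.078) and was called, among 3.14% of all genes. In FOD-CCI, then with 2 rats, it was −0.81 (SE 0.25, adjusted p = 0.24) and was not called, with 0.914% of all genes called. With every library, DESeq2 called Gria2 in SOD-CCI (log2 fold change −0.87, adjusted p = 0.046, with 3.24% of all genes called). Over the 17 libraries without spinal cord transcripts, Gria2 ran from 9.81 to 20.9 CPM in the 6 injured DRG (median 18.2) and from 26.1 to 36.0 CPM in the 11 others (median 32.3). No other member was lower in all injured DRG in this way, and 36 of 14087 genes (0.256%) were. Without the muscle library as well, Gria2 was again the 1 member, and 121 of 14496 genes were lower. With all 20 libraries, 0 members and 1 of 14435 genes were. The 11 others include the right DRG of 5 of the injured rats, and this split was chosen after the values had been seen.

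Slc17a7 was lower on the injured side of the same rats. In SOD-CCI rats it had 234, 220, and 206 CPM on the left and 400, 462, and 314 CPM on the right, ratios of 0.583, 0.476, and 0.658. In FOD-CCI it had 131 and 219 CPM on the left of replicates 2 and 3 and 258 and 334 CPM on the right, ratios of 0.508 and 0.656. In both diets the left values lay below the right values of every rat without spinal cord transcripts. The share of all genes whose sides were separate in this way was not computed. FOD-CCI replicate 1 had 88.4 CPM on the left and 0 counts on the right, for which no ratio is given. Slc17a7 and Gria2 were the members lower on the left in all 5 of the other rats, as were 8.68% of all genes.

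With every library, the side difference of Slc17a7 was −0.87 (SE 1.24, adjusted p = 0.91) in SOD-CCI and 0.75 (SE 1.65, adjusted p = 0.94) in FOD-CCI by edgeR. Without both DRG of FOD-CCI replicate 1 it was −0.87 (SE 0.18, adjusted p = 0.044) in SOD-CCI, which was called, and −0.80 (SE 0.22, adjusted p = 0.21) in FOD-CCI, which was not. The direction in FOD-CCI thus turned with this 1 rat. The left values overlapped those of sham DRG, where Slc17a7 spread from 43.4 CPM (the muscle library) to 331 CPM under SOD. Against sham, it was 0.09 (SE 0.52, adjusted p = 0.95) on the log2 scale for SOD-CCI against SOD-CT and −0.38 (SE 0.52, adjusted p = 1.00) for FOD-CCI against FOD-CT.

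The summed sensory neuron markers had no common direction between the sides. The left to right ratio of their summed CPM was 1.15, 1.42, and 1.06 in SOD-CCI and 0.983 and 1.18 in replicates 2 and 3 of FOD-CCI. Most of that sum was Prph, which encodes the neuronal filament peripherin. For the other 7 markers, the ratio was 1.08, 1.08, and 0.737 in SOD-CCI and 0.642 and 0.745 in FOD-CCI. In the fit without the spinal cord rat, 7 of the 8 markers had negative log2 fold changes in SOD-CCI (median −0.09) and 6 of the 8 in FOD-CCI (median −0.43), and 0 were called. Their part in the lower Slc17a7 and Gria2 values was not tested.

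Slc17a6 did not follow Slc17a7. Its left to right ratio was 0.863, 1.49, and 1.18 in SOD-CCI and 0.729, 0.999, and 1.56 in FOD-CCI, on both sides of 1 in each diet. Between the sides, it differed by 0.15 (SE 0.24, adjusted p = 0.93) and 0.08 (SE 0.24, adjusted p = 0.96). The ratio of Slc17a7 to Slc17a6 in FPKM was 2.37 ± 0.108 (SD, n = 3) in SOD-CCI and 5.12 ± 2.36 (SD, n = 3) in the contralateral DRG. In FOD-CCI it was 2.13 and 2.47 in replicates 2 and 3 and 4.20 and 5.86 in their contralateral DRG. Each of these 5 rats had a lower ratio on the left, and no test was run on the ratio. It was 0.647 and 0.935 in the left spinal cord libraries and 0.942 in the muscle library, against 1.87 to 4.84 in the remaining sham DRG.

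**Figure D3:**
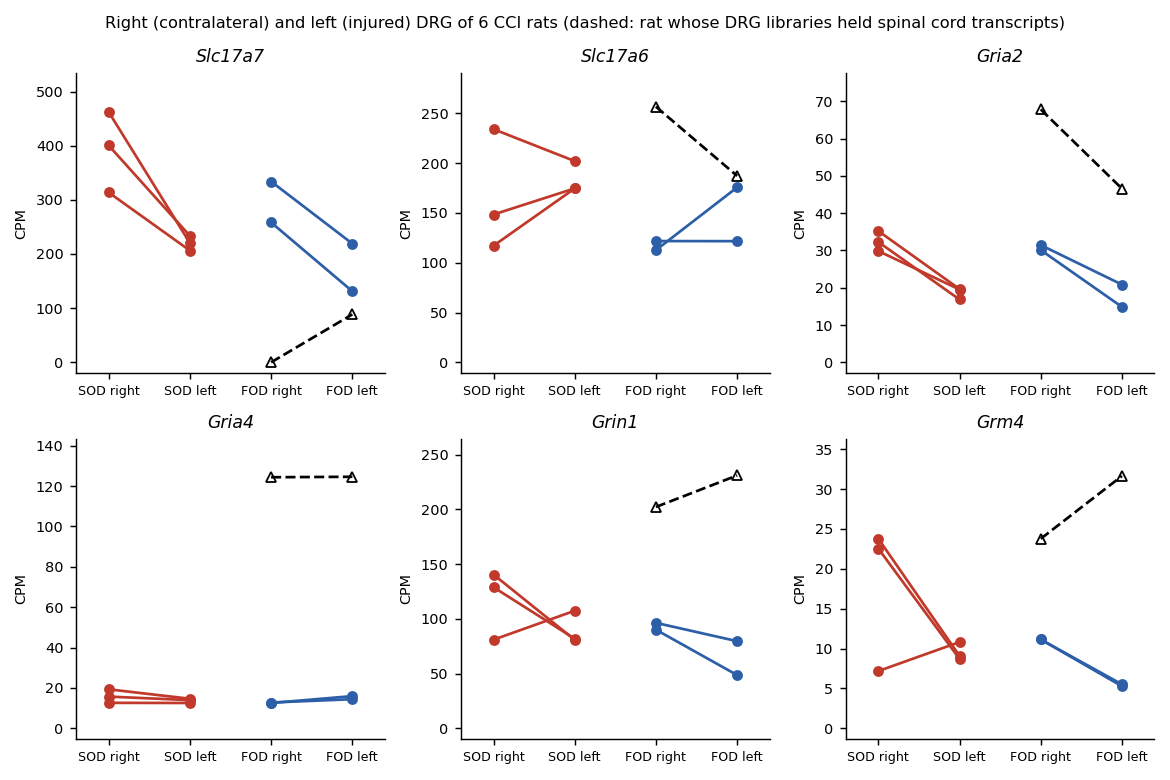
CPM in the right (contralateral) and left (injured) DRG of 3 SOD-CCI rats (red) and 3 FOD-CCI rats (blue), with a line per rat and the rat with spinal cord transcripts dashed. All 5 solid lines fall for Gria2 and for Slc17a7, while Slc17a6 has no common direction. The dashed line falls for Gria2 and rises for Slc17a7, and its right library goes against its DRG label.

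The other receptor genes had less even ratios between the sides. Grm4 had left to right ratios of 1.51, 0.386, and 0.382 in SOD-CCI and 1.33, 0.473, and 0.495 in FOD-CCI (log2 fold changes −0.80, SE 0.48, adjusted p = 0.74, and −0.55, SE 0.47, adjusted p = 0.85, by edgeR). Grin1 had ratios of 1.33, 0.575, and 0.635 in SOD-CCI and 1.14, 0.540, and 0.826 in FOD-CCI. For both genes, replicate 1 was higher on the left and replicates 2 and 3 were lower. Gria4 was lower on the left in 3 of 3 SOD-CCI rats (ratios 0.994, 0.887, and 0.758) and higher in 3 of 3 FOD-CCI rats (1.00, 1.27, and 1.13). Over all genes, 16% were lower in 3 of 3 SOD-CCI rats, 11.4% were higher in 3 of 3 FOD-CCI rats, and 0.667% were both. For Gria4 the difference between diets was 0.43 (SE 0.27, adjusted p = 1.00). Grik1 had ratios from 0.381 to 3.4 and had no common direction. Gria1 was higher on the left in 3 of 3 SOD-CCI rats (ratios 1.84, 5.44, and 1.79), as were 25% of all genes, and lower in FOD-CCI replicates 1 and 2 (0.404 and 0.930), with 0 counts on the right of replicate 3. It was counted at 0 to 5.66 CPM outside the spinal cord libraries, and its SE between the sides of SOD-CCI rats was 1.07 on the log2 scale. Grm7 had ratios of 0.881, 1.07, and 0.703 in SOD-CCI and was higher on the left in 3 of 3 FOD-CCI rats (1.12, 1.07, and 2.53), where 11.4% of all genes were.

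Grm4 and Grik1 were low in FOD-CCI left DRG once the spinal cord libraries were set aside. Grm4 had 5.27, 5.51, and 6.52 CPM in FOD-CCI replicates 2 to 4 and 18.0 and 13.4 CPM in FOD-CT replicates 2 and 3, while both spinal cord libraries were far higher (31.6 and 42.1 CPM). Its log2 fold change was −0.94 (SE 0.60, adjusted p = 1.00) with them and −1.47 (SE 0.40, adjusted p = 0.27) without. Grik1 had 61.1, 26.2, and 32.6 CPM against 72.9 and 78.7 CPM, and its log2 fold change went from −0.72 (SE 0.35) to −0.93 (SE 0.35, adjusted p = 0.48). With every library, Grm7 was the 1 member whose FOD-CCI values (15.9 to 18.4 CPM) lay below all FOD-CT values (21.0 to 34.2 CPM), and 2.54% of all genes did so. Without the spinal cord libraries 5 of 9 members did so (Grik1, Gria2, Grin1, Grm4, and Grm7), and so did 13.8% of all genes with 3 rats against 2. The sensory neuron sum without Prph was 831 to 1013 CPM in these FOD-CCI libraries and 1239 and 1519 CPM in the FOD-CT libraries. With Prph, the sums overlapped (4058 to 5201 CPM against 4350 and 4089 CPM). FOD-CT replicate 2, 1 of the 2 sham libraries left, held 18903 CPM of muscle markers, against 6.79 to 189 CPM in these FOD-CCI libraries. The part of either was not tested. When SOD-CT replicate 1 was left out as well, a fit chosen after the data had been seen, Gria2 (−1.24, adjusted p = 0.058) and Grm4 (−1.48, adjusted p = 0.041) were called in FOD-CCI against FOD-CT, among 3.47% of all genes.

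FOD-CCI against SOD-CCI asks how the diets differ in the injured DRG. The signs of 4 members turned with the spinal cord libraries. Gria4 had 12.5, 13.9, and 14.6 CPM in SOD-CCI and 125, 15.9, 14.4, and 23.0 CPM in FOD-CCI. Its log2 fold change was 1.76 (SE 0.79, unadjusted p = 0.043, adjusted p = 0.86 by edgeR) with FOD-CCI replicate 1 and 0.44 (SE 0.40, adjusted p = 0.92) without the spinal cord libraries. The 4 whose sign turned were AMPA, NMDA, and metabotropic receptor genes. Gria1 went from 0.48 (SE 0.89) to −0.68 (SE 0.44), Gria2 from 0.37 (SE 0.50) to −0.23 (SE 0.27), Grin1 from 0.26 (SE 0.58) to −0.50 (SE 0.41), and Grm4 from 0.42 (SE 0.62) to −0.66 (SE 0.37). Gria1, Grin1, and Grm4 were then lower in all 3 FOD-CCI than in all 3 SOD-CCI rats, as were 14.6% of all genes, and none was called. Without Prph, the sensory neuron sum was 1348 to 1559 CPM in SOD-CCI and 831 to 1013 CPM in FOD-CCI replicates 2 to 4. With Prph, these sums overlapped (4562 to 5625 CPM and 4058 to 5201 CPM). FOD-CCI replicate 1 had 528 CPM without Prph and 2382 CPM with it. With every library all 8 neuron markers had negative log2 fold changes, and without the spinal cord libraries 7 of 8 did, with Scn10a at −1.07 (SE 0.36, adjusted p = 0.80) and Avil at −0.88 (SE 0.29, adjusted p = 0.80). Their part was not tested. With every library, no member had groups that did not overlap, whereas 9.28% of all genes were lower and 5.92% higher in that way.

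Grik1 kept its direction in that comparison. It had 47.1, 92.9, and 76.3 CPM in SOD-CCI and 29.1, 61.1, 26.2, and 32.6 CPM in FOD-CCI, so that only FOD-CCI replicate 2 reached into the SOD-CCI range. The log2 fold change was −0.87 (SE 0.35, unadjusted p = 0.026, adjusted p = 0.86) and was −0.77 (SE 0.32, adjusted p = 0.83) without the spinal cord libraries. Slc17a7 had 234, 220, and 206 CPM in SOD-CCI and 88.4, 131, 219, and 168 CPM in FOD-CCI. The lowest of these was the spinal cord library. It differed by −0.47 on the log2 scale (SE 0.52, adjusted p = 0.91) and −0.28 (SE 0.45, adjusted p = 0.96) without it. Slc17a6 differed by −0.15 (SE 0.20, adjusted p = 0.93) and Grm7 by −0.33 (SE 0.30, adjusted p = 0.89).

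In sham DRG, FOD-CT against SOD-CT gave 6 of the 7 receptor genes positive log2 fold changes, and these were smaller or negative without the spinal cord libraries. Gria1 went from 1.81 (SE 0.88, adjusted p = 0.96) to −0.52 (SE 0.47) without the spinal cord libraries, Gria4 from 1.46 (SE 0.75) to 0.33 (SE 0.42), and Gria2 from 0.95 (SE 0.49) to 0.10 (SE 0.29). Over the 9 members the median log2 fold change was 0.95 with every library, against −0.01 for all genes, and 0.30 without the spinal cord libraries, against −0.03. The interaction of diet and injury was not called for any member, with log2 values from −1.33 (SE 1.23) for Gria1 to 0.30 (SE 1.06) for Gria4. For Gria2 it was −0.59 (SE 0.70, adjusted p = 0.90).

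**Figure D4:**
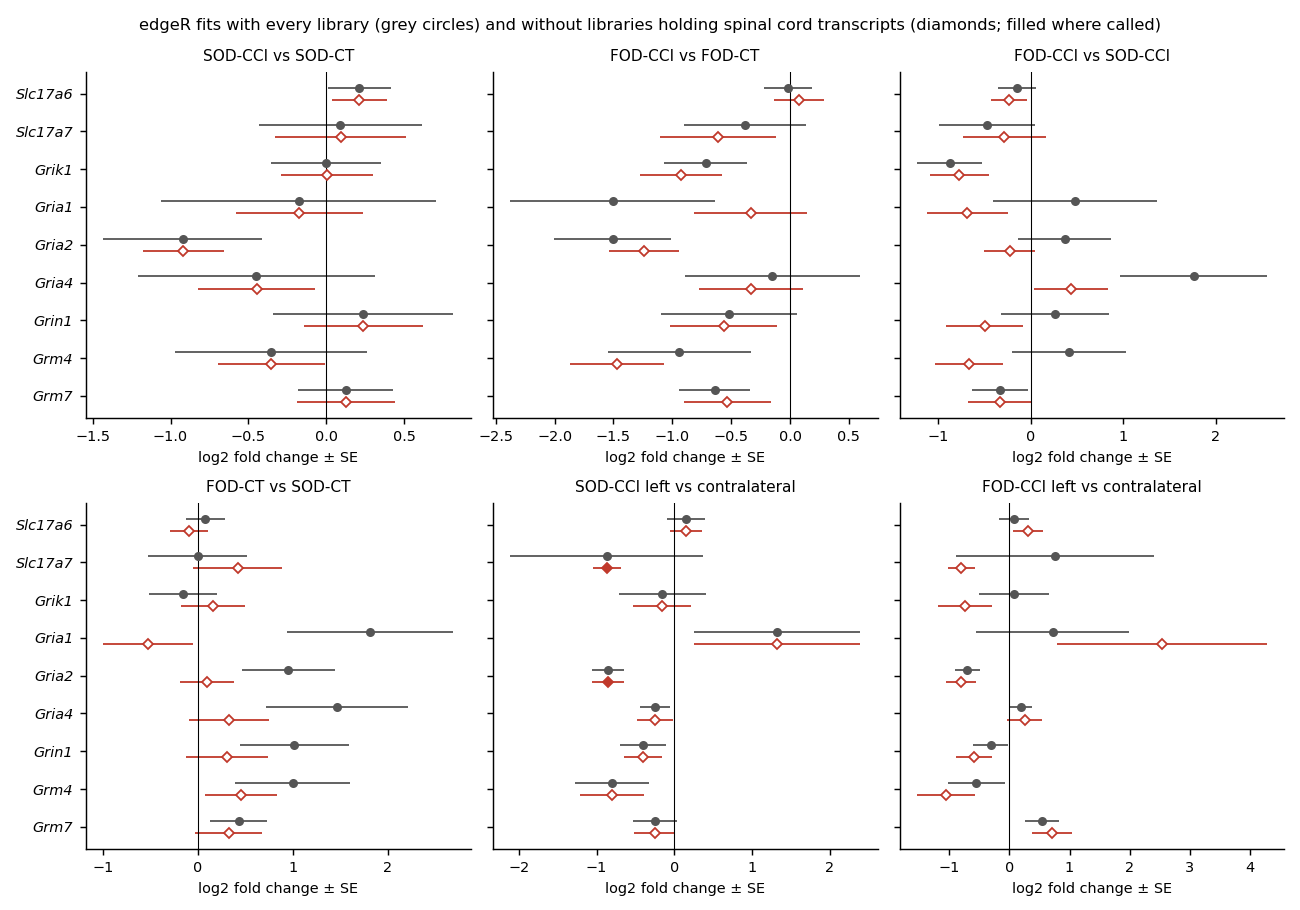
Log2 fold change ± SE of the 9 members in 6 comparisons, with every library (grey circles) and without libraries holding spinal cord transcripts (diamonds, filled where called). Gria2 lies left of 0 in the 4 injury panels under both fits, Slc17a7 and Gria2 are filled in the SOD-CCI side comparison, and Gria1, Gria2, Grin1, and Grm4 cross 0 in FOD-CCI against SOD-CCI.

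The contralateral DRG compare the diets away from the ligated nerve. Grm7 had 28.5, 24.6, and 24.4 CPM in SOD-CCI contralateral DRG and 15.7, 16.5, and 6.28 CPM in FOD-CCI contralateral DRG. The groups did not overlap, and 8.85% of all genes were lower in this way. The log2 fold change was −1.03 (SE 0.40, unadjusted p = 0.029, adjusted p = 0.52 by edgeR) and was −1.16 (SE 0.41, adjusted p = 0.38) without the library labelled FOD-CCI contralateral replicate 1. Gria4 went from 1.59 (SE 0.80, adjusted p = 0.55) to −0.30 (SE 0.33, adjusted p = 0.77) when that library was left out. Slc17a7 and Gria1 had 0 counts in 1 library each and were not tested with all 6. Without the spinal cord library, Slc17a7 differed by −0.38 (SE 0.28, adjusted p = 0.63), and 0.12% of all genes were called but 0 of 8 members tested.

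Other genes of glutamate signaling were taken as 3 lists, of receptor subunits (19), of transport and metabolism (16), and of auxiliary subunits and scaffolds (24). With every library, edgeR called 0 of their genes in any comparison, with 25 of 408 results at an unadjusted p below 0.05 over the 9 comparisons (6.13%, against 6.65% over all genes). DESeq2 made 10 calls, 7 of them for auxiliary genes and 3 for transport and metabolism genes, in comparisons where it called 1.49% to 4.1% of all genes. Of the receptor subunits, 11 were tested, and all 11 had positive log2 fold changes in SOD-CCI against SOD-CT (median 0.53, against −0.01 for all genes and 0.00 for the members), as did 49.3% of all genes. Without the muscle library, left out after seeing the data, 9 of 12 were positive, with a median of 0.35. As given above for Gria2, the summed sensory neuron markers were also higher in SOD-CCI with Prph but overlapped without it. Of the 8 markers, 7 were positive (median 0.28). Their part was not tested. Grik2, another kainate subunit gene, had the lowest unadjusted p there (0.76, SE 0.35, adjusted p = 0.35). Across diets in injured DRG, 7 of the 11 were positive with every library, and 0 of 11 were without the spinal cord libraries, where the median was −0.17. Of all genes, 54.3% and 50.5% were positive in these fits, and most sensory neuron markers had negative log2 fold changes, as given above. In sham DRG, Grin2d (2.96, SE 1.28) and Grid1 (1.41, SE 0.60) had the lowest unadjusted p in FOD-CT against SOD-CT, with adjusted p = 0.96 for both. Without the spinal cord libraries they were 0.56 (SE 1.04) and 0.53 (SE 0.48).

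Among the auxiliary genes are the neuronal pentraxins, secreted proteins that gather AMPA receptors at synapses. In SOD-CCI against SOD-CT, Nptx2 had a log2 fold change of 1.23 (SE 0.32, adjusted p = 0.27), its receptor Nptxr 1.32 (SE 0.40, adjusted p = 0.27), and Grip1, an AMPA receptor scaffold, 0.84 (SE 0.25, adjusted p = 0.27) by edgeR. DESeq2 called these 3 genes (adjusted p = 0.036, 0.057, and 0.053), among 4.1% of all genes. Without the spinal cord libraries, Nptx2 was called (1.23, SE 0.25, adjusted p = 0.088). Between the sides of SOD-CCI rats, Nptx1 was then called lower on the left (−0.90, SE 0.18, adjusted p = 0.037), while Nptx2 (0.77, SE 0.19, adjusted p = 0.092) and the scaffold gene Homer3 (1.09, SE 0.23, adjusted p = 0.047) were called higher. Nptx1 was also called lower on the left in FOD-CCI (−1.12, SE 0.22, adjusted p = 0.078). With every library, the lowest unadjusted p among these genes belonged to Homer3 (1.09, adjusted p = 0.25), Nptxr (0.62, adjusted p = 0.32), and Nptx2 (0.77, adjusted p = 0.43) between the sides in SOD-CCI, and to Homer3 (0.88, adjusted p = 0.58) and Nptx2 (0.66, adjusted p = 0.66) in FOD-CCI. Elsewhere they belonged to Homer3 in FOD-CCI against FOD-CT (0.90, adjusted p = 1.00), Nptx2 in FOD-CCI against SOD-CCI (−0.71, adjusted p = 0.86), Grip1 in the interaction (−0.79, adjusted p = 0.89), and Nptx1 in the contralateral DRG (−0.77, adjusted p = 0.50). Of the 23 auxiliary genes tested between the sides, 3 were called in SOD-CCI and 1 in FOD-CCI without the spinal cord rat, beside 3.14% and 0.914% of all genes. With every library, DESeq2 called Nptx1 (−0.92, adjusted p = 0.094), Nptxr (0.60, adjusted p = 0.063), and Homer3 (1.07, adjusted p = 0.043) between the sides of SOD-CCI rats, among 3.24% of all genes. In FOD-CCI, where it called 1.81% of all genes, it called Cacng5, an auxiliary subunit gene named after its values were seen (2.84, adjusted p = 0.076). By edgeR without the spinal cord rat, Cacng5 was 1.64 (SE 1.57, adjusted p = 0.71).

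In the transport and metabolism list, 13 genes were tested, and 0 were called in FOD-CCI against SOD-CCI. Slc1a3, which encodes the glial uptake transporter GLAST, had a log2 fold change of 1.19 (SE 0.79, adjusted p = 0.86) with every library and 0.14 (SE 0.27, adjusted p = 0.97) without the spinal cord libraries. Glul, the glutamine synthetase gene, went from 0.90 (SE 0.55) to 0.34 (SE 0.31), and Glud1, the glutamate dehydrogenase gene, from 0.48 (SE 0.39) to −0.04 (SE 0.17). Between the sides of FOD-CCI rats, Slc1a3 was −1.10 (SE 0.21, unadjusted p = 0.00057, adjusted p = 0.41) and −0.95 (SE 0.26, adjusted p = 0.21) without the spinal cord rat. Slc38a3, a glutamine transporter gene, was −2.23 (SE 0.81, adjusted p = 0.62) there and −3.36 (SE 1.02, adjusted p = 0.23) without that rat. DESeq2 called both with every library (Slc1a3 −1.10, adjusted p = 0.0042, and Slc38a3 −2.30, adjusted p = 0.033), among 1.81% of all genes. Slc1a3 also had the lowest unadjusted p of the list for the difference of sides between diets (−0.96, SE 0.30, adjusted p = 1.00). In FOD-CT against SOD-CT, Slc1a1 (3.03, SE 1.05) and Slc1a3 (1.91, SE 0.76) had adjusted p = 0.96 with every library, and they were 0.85 (SE 0.97) and 0.0011 (SE 0.29) without the spinal cord libraries. In the contralateral DRG, Slc38a3 (3.90, SE 1.13), Slc1a3 (2.45, SE 0.81), and Slc38a2 (−0.68, SE 0.27) had adjusted p of 0.50 to 0.52 by edgeR. DESeq2 called Slc38a3 there (3.92, adjusted p = 0.0035), among 1.49% of all genes. Without the library labelled FOD-CCI contralateral replicate 1, the edgeR values were 1.83 (SE 0.78), 0.59 (SE 0.29), and −0.60 (SE 0.25).

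The members were also compared with each other and with all genes across the 17 libraries, as Pearson correlations of log2 CPM. These points share diets, rats, and the muscle library, so the values are descriptions. Slc17a7 and Grin1 were the most alike pair of members (0.94), whereas Slc17a7 and Slc17a6 stood at 0.44. The genes most like Slc17a7 were Angel1 (0.98), Apbb1 (0.98), and Cdk5r2 (0.98), and those most like Grin1 were Jag2 (0.98), Btbd2 (0.98), and Ube2o (0.97). Among the 3 genes most like Gria2 were Gpr22 (0.94) and LOC103691652 (0.94). The nearest genes included Vwa5a (0.93), Map2k1 (0.93), and LOC108353456 (0.92) for Slc17a6, Kcnip4 (0.87), Mctp2 (0.86), and Paqr5 (0.85) for Grik1, and Adal (0.96), RGD1559731 (0.95), and Dffb (0.94) for Gria1. They also included Ly75 (0.90), Vgll4 (0.88), and Enpp5 (0.88) for Gria4, Miga2 (0.94) and Hapln4 (0.90) for Grm4, and Rftn2 (0.89), LOC680107 (0.89), and a gene whose symbol the file holds as a date (0.88) for Grm7. With the summed sensory neuron markers, the correlation was 0.73 for Grin1, 0.72 for Slc17a7, and 0.70 for Slc17a6, and it was −0.21 for Gria2.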

How the data were processed

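RNA was measured in 20 rat DRG libraries. The authors deposited counts (whole numbers of fragments per gene, not normalized) and FPKM values. Per the labels, reads were trimmed with fastp, aligned with HISAT2, and counted with featureCounts 1.5.0-p3, on poly-A selected RNA. The genome build and the use of strand are not given in the sources used here, so overlapping and antisense genes cannot be told apart. The FPKM values deposited by the authors equal counts per gene length over DESeq2 size factors scaled to the geometric mean of the totals. The gene length column of the deposited table was used to check this. All 20 columns were assigned from the labels (0 left over).

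Counts were tested with R 4.3.3, edgeR 4.0.16 (limma 3.58.1), TMM factors, and its quasi-likelihood test (two-sided), and DESeq2 1.42.0 was an alternative. A gene entered a fit when 90% or more of its libraries had 10 counts or more. This left 14484 genes for the 14 left libraries (a mean for each of the 4 groups), 14549 for the 12 libraries of rats with both DRG (rat as a block), and 13590 for the 6 contralateral libraries, where Slc17a7 and Gria1 fell below the filter. Fits without spinal cord transcripts left out FOD-CT replicate 1 and FOD-CCI replicate 1, both DRG of that rat, or the library labelled FOD-CCI contralateral replicate 1. CPM use the library total as the base. SEs are the log2 fold change over the root of the quasi-likelihood F. An adjusted p printed as 1.00 is above 0.99. Intervals from a count of 0 allow 3 counts and cover counting error only.

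In rats with both DRG, left and right deviations from group means correlated at 0.113 to 0.43 (6 of 6 above 0.1). Left libraries of different rats with the same replicate number reached 0.429 (6 of 19 above 0.1). That 0.429 belongs to FOD-CT and FOD-CCI replicate 1, the left spinal cord libraries. The rat with spinal cord transcripts on both sides had 0.361. The pairing rests on the rat number in the library names. No 2 replicates agreed within sampling noise (lowest chi-square per gene 25.6). The code was tested on simulated data with known changes. Each library is 1 DRG sample, and the spread between rats, not depth, limits precision.

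The named genes are the 9 members in all comparisons, list genes that were called or else the 3 of a list with the smallest unadjusted p below 0.05, Slc1a3, Glul, and Glud1 in the diet comparison of injured DRG, and the 3 genes most correlated with each member (log2 CPM, prior count 1). Some genes that this rule names are not reported here. The members, lists, and markers were chosen with earlier results of these data known.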

Additional observations from a re-analysis of the deposited data

Results flagged for a closer look

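In FOD-CCI, replicate 1 stood apart from the other 3 rats for 4 of the 9 members, by a gap of 0.83 to 0.953 of the range of the group (Dixon's test). Gria1 had 14.4 CPM there against 1.99 to 3.01 CPM, and Gria4 had 125 CPM against 14.4 to 23.0 CPM. Grin1 had 231 CPM against 48.6 to 79.6 CPM, and Grm4 had 31.6 CPM against 5.27 to 6.52 CPM. All 4 values were high and belong to the same library, the one with 2359 CPM of spinal cord glia markers. Only groups of 4 rats were tested, and of 18 such groups, 4 stood out in this way. The library had been flagged for spinal cord transcripts beforehand, so the test adds no support. All 4 share that library, so they are not independent and cannot be set against a chance rate. The share over all genes was not computed.

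Gria4 was lower on the injured side in all 3 SOD-CCI rats and higher in all 3 FOD-CCI rats. Over all genes, 16% were lower in all 3 SOD-CCI rats, 11.4% were higher in all 3 FOD-CCI rats, and 0.667% were both. The log2 difference between the diets was 0.43 and did not pass the test (SE 0.27, adjusted p = 1.00 by edgeR). The closest ratios to 1 were 0.994 in SOD-CCI replicate 1 and 1.00 in FOD-CCI replicate 1, which is the spinal cord rat.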

How the results depend on the processing

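With other settings, no member was called in 7 of the 9 comparisons, and the remaining calls were these. In SOD-CCI, left against contralateral, 1 member was called by DESeq2 (Gria2), and leaving out each rat in turn gave 0 to 2 members (2, Slc17a7 and Gria2, without FOD-CCI replicate 1). FOD-CCI against FOD-CT had 2 members called (Gria2 and Grm4) when SOD-CT replicate 1, FOD-CT replicate 1, and FOD-CCI replicate 1 were all left out, a fit chosen after seeing the data. DESeq2 size factors in edgeR, no filter on low counts, and only the 2 groups compared gave 0 members called in each comparison. Gria2 was negative in each of the 4 injury comparisons under each setting run.

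Left libraries with the same replicate number come from different rats and were not paired (correlations from −0.269 to 0.429, 6 of 19 above 0.1). The highest value belongs to the left spinal cord libraries. Contralateral libraries were not paired across diets either (−0.153 to −0.094). A replicate block left 0 members called and 0 or 1 gene called over all genes, and turned the sign of Grin1 at −0.11 in SOD-CCI against SOD-CT, Slc17a6 at 0.016 in FOD-CCI against FOD-CT, Gria1 at −0.15 in FOD-CCI against SOD-CCI. With the rat left out as a term (no replicate block), the sign turned for Slc17a7 at −0.46, Grik1 at −0.30 and Gria1 at −0.89 in the sides of FOD-CCI, Grik1 at −0.12 in the difference of sides between diets. Without both left spinal cord libraries it turned for Grik1 at 0.0016 in SOD-CCI against SOD-CT, Slc17a6 at 0.076 in FOD-CCI against FOD-CT, Gria1 at −0.68, Gria2 at −0.23, Grin1 at −0.50 and Grm4 at −0.66 in FOD-CCI against SOD-CCI, Slc17a6 at −0.097, Slc17a7 at 0.42, Grik1 at 0.16 and Gria1 at −0.52 in FOD-CT against SOD-CT. Without SOD-CT replicate 1 as well it turned for Slc17a7 at −0.21, Grik1 at 0.0002, Grin1 at −0.026 and Grm7 at −0.039 in SOD-CCI against SOD-CT, Slc17a6 at 0.069 in FOD-CCI against FOD-CT, Gria1 at −0.67, Gria2 at −0.21, Grin1 at −0.49 and Grm4 at −0.66 in FOD-CCI against SOD-CCI, Slc17a6 at −0.13, Slc17a7 at 0.14, Grik1 at 0.17 and Gria1 at −0.45 in FOD-CT against SOD-CT. None of these turned values was called.

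Leaving out each replicate or rat in turn gave a changed sign or call for these log2 fold changes, as ranges. In SOD-CCI against SOD-CT, the ranges were Slc17a7 −0.21 to 0.41, Grik1 −0.20 to 0.22, Grin1 −0.025 to 0.48 and Grm7 −0.050 to 0.34. In FOD-CCI against FOD-CT, the ranges were Slc17a6 −0.17 to 0.16, Slc17a7 −0.80 to 0.070, Gria1 −2.67 to 0.83, Gria4 −1.47 to 0.98 and Grin1 −1.27 to 0.19. In FOD-CCI against SOD-CCI, the ranges were Gria1 −0.68 to 0.78, Gria2 −0.23 to 0.62, Grin1 −0.49 to 0.49 and Grm4 −0.66 to 0.66. In FOD-CT against SOD-CT, the ranges were Slc17a6 −0.098 to 0.24, Slc17a7 −0.45 to 0.42, Grik1 −0.36 to 0.16 and Gria1 −0.52 to 2.30. For the interaction, the ranges were Gria1 −2.49 to 1.01, Gria2 −1.18 to 0.27 and Gria4 −1.02 to 1.43. For the sides of SOD-CCI, the ranges were Slc17a6 −0.033 to 0.36, Slc17a7 −1.01 to −0.73, Grik1 −0.72 to 0.28 and Gria2 −0.93 to −0.78. For the sides of FOD-CCI, the ranges were Slc17a6 −0.18 to 0.31, Slc17a7 −0.80 to 3.39, Grik1 −0.74 to 0.87 and Gria1 −0.68 to 2.54. For the difference of sides between diets, the ranges were Slc17a6 −0.33 to 0.17, Grik1 −0.59 to 1.02, Gria1 −2.00 to 1.22, Grin1 −0.18 to 0.47 and Grm4 −0.25 to 0.89. For contralateral DRG between diets, the ranges were Slc17a6 −0.49 to 0.30, Gria2 −0.051 to 0.56, Gria4 −0.30 to 2.04 and Grin1 −0.30 to 0.32. The cause was not tested. Depth allowed a library with 0 counts of a gene up to 0.133 CPM, and Gria1 was the member closest to that limit.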
